A study of Caenorhabditis elegans with 36 samples.

Results

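Vesicle trafficking genes are described here in RNA held with the microRNA-induced silencing complex of Caenorhabditis elegans and in total RNA of the same animals, from egg to the last larval stage. The genes were chosen by name only: a gene is a member when its array symbol begins with rab- or sec- followed by a digit, or with arf-, arl-, vps- or snx-. This rule took 84 of 22149 genes and unnamed probes, through 87 probes, and 82 of the 84 could be tested. The ciliary GTPase gene arl-6 and the tether gene vps-50 had too few lysates with a value in both fractions. All animals carried a single-copy integrated AIN-2::GFP transgene, whose promoter is not given in the sources used here. AIN-2 is a GW182-family protein that joins Argonaute and microRNA in the silencing complex. It was immunoprecipitated (IP) with an antibody to GFP, and the input is total RNA taken from the same lysate. Animals were grown at 20 °C. The groups were Egg IP and Egg input (4 lysates), L1 IP and L1 input after 4 hours on food (4 lysates), L2 IP and L2 input after 21 hours (3 lysates), L3 IP and L3 input after 30 hours (4 lysates), and L4 IP and L4 input after 42 hours (3 lysates). More than 80% of the animals of a culture had the intended stage, per the labels. An IP from animals without GFP was not analysed here, so RNA bound through AIN-2 and RNA retained without it cannot be told apart.

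Cells move membrane proteins and secreted proteins in small vesicles that bud from one compartment and fuse with the next. Proteins enter the endoplasmic reticulum (ER) through the Sec61 translocon, leave it in vesicles with a COPII coat, and reach the plasma membrane after the exocyst has tethered their carriers there. Rab, Arf and Arl GTPases give each compartment its identity and recruit coats and tethers. On the way inward, ESCRT complexes sort ubiquitinated proteins into lysosome-bound vesicles, retromer and sorting nexins return cargo, and the HOPS, CORVET and GARP tethers guide endosomal fusion. In C. elegans these genes act in yolk uptake by oocytes, in secretion of the cuticle, in cilia of sensory neurons and in division of the embryo.

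The background limit was 3 times the noise of the array channel. The IPs showed 43 to 81 of the 84 member genes above background, and the inputs showed 67 to 82. The dimmest IPs were L3 replicate 1 with 43 and L4 replicate 3 with 44 member genes. Precision is limited by how many arrays there are. A list of 12 sperm genes had input medians of 2.41 to 5.61 (log2 normalized intensity) in the L4 lysates and at most 0.89 in every other lysate. Medians of 5 measured early embryo markers were -5.05 to -1.96 in larval inputs, against -1.89 to -1.12 in Egg inputs. The samples are whole animals, so fewer cells of a type and less RNA per cell cannot be told apart in any value below.

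Each IP was set against the input of its own lysate to ask which of these mRNAs were held with AIN-2. All values are log2 IP minus input, so that 1 is a doubling in the IP, with the standard error of the fit. Averaged over the 5 stages, 14 of 82 members were called higher in the IP by limma, which is 17.1%, where 19.1% of all 15732 genes and probes tested were called higher. It called 25 members lower, which is 30.5%, against 25.1% of all. The median was -0.16 over the members and -0.09 over all. Both shares were near the background. All 39 called members had the same sign in lysates with the IP in Cy3 and in lysates with the IP in Cy5. The calls were made on these same lysates, so this is a description, and the sizes differed between the dyes for some members. When each lysate was left out in turn, 33 of the 39 calls were not lost in any fit that could test the gene. A member with too few lysates left was not tested in that fit and counts as not lost. This holds for rab-39, which had a difference in 2 of 3 L2 lysates. With the values as deposited the median of all genes moved to 0.14, and 35 of the 39 calls held. Over all scalings run, 30 of the 39 held. Without the pairing of IP and input by lysate 30 held, and those lost were rab-1, rab-35, rab-39, rab-6.2, sec-22, sec-23, snx-13, snx-17 and vps-52.

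**Figure D1:**
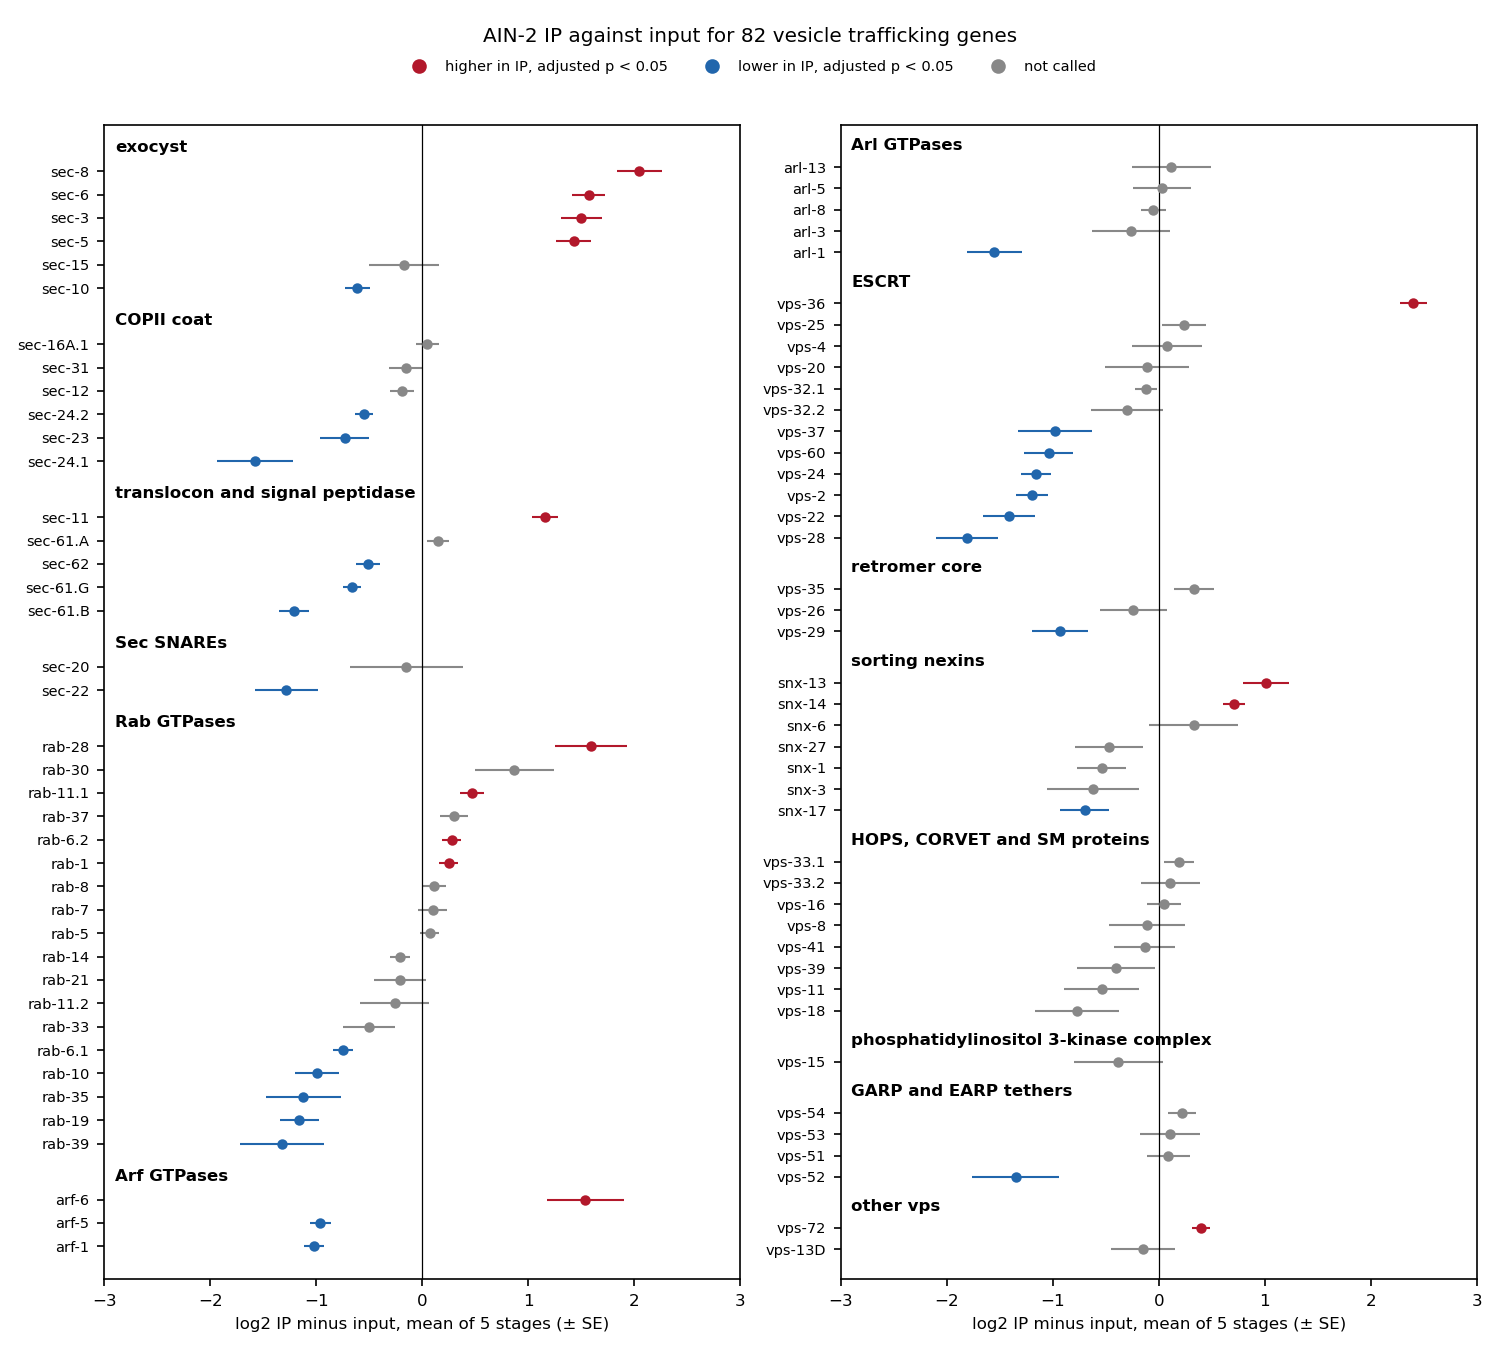
Log2 IP minus input of the 82 tested members, mean of the 5 stages, as points with bars of 1 standard error, grouped by the complex or family of the protein. Red points are called higher, blue points lower, grey points not called (limma, adjusted p under 0.05). Among exocyst genes 4 of 6 are red, and among ESCRT genes 1 of 12 is red and 6 are blue.

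The exocyst is a tether that catches secretory vesicles at the plasma membrane, and its mRNAs were the family of members most often higher in the IP. Of the 6 exocyst genes that the symbol rule took, 4 were higher, 1 was lower and 1 did not pass the test, with a median of 1.46. The 4 that were higher are sec-8, sec-6, sec-3 and sec-5. The log2 level of sec-8 was -0.65, 0.56 and 1.63 (lowest, median and highest) in the 18 IPs, against -3.19, -1.37 and -0.62 in the 18 inputs. The IP lay above its own input in all 18 lysates. The difference was 2.05 ± 0.215 (adjusted p = 1.25e-07), a 4.15-fold higher level in the IP, and 97.1% of all genes and probes tested stood lower. For sec-6 the levels were -3.34, -1.35 and -0.55 in the IPs, against -3.94, -3.12 and -1.32 in the inputs. The difference of sec-6 was 1.57 ± 0.159 (adjusted p = 8.1e-08), above 0 in 17 of 18 lysates. The exception was Egg replicate 1 at -0.05, so the IP and input of that lysate were nearly equal.

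Levels of sec-3 were -4.29, -0.64 and 0.94 in the 18 IPs, against -3.74, -2.21 and 0.69 in the 17 inputs with a value. Its difference was 1.5 ± 0.194 (adjusted p = 3.1e-06), above 0 in all 17 lysates. Levels of sec-5 were -2.19, 0.01 and 1.58 in the IPs, against -2.03, -1.29 and -0.76 in the inputs. Its difference was 1.43 ± 0.167 (adjusted p = 5.92e-07), above 0 in 17 of 18 lysates, and L3 replicate 1 stood apart at -0.99. The ranges of IP and input overlapped for these genes when all stages are pooled, whereas within a lysate the IP was the higher one in nearly every case. The other exocyst genes among the members differed from them. sec-10, the partner of sec-15 in yeast, had levels of -2.84, -0.48 and 0.29 in the IPs, against -0.92, 0.04 and 0.89 in the inputs. It was lower in the IP at -0.61 ± 0.121 (adjusted p = 0.000339), below 0 in 16 of 18 lysates. sec-15, which binds Rab proteins on the vesicle, had a difference of -0.17 ± 0.333 (adjusted p = 0.712) and was above 0 in 10 of 17 lysates.

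**Figure D2:**
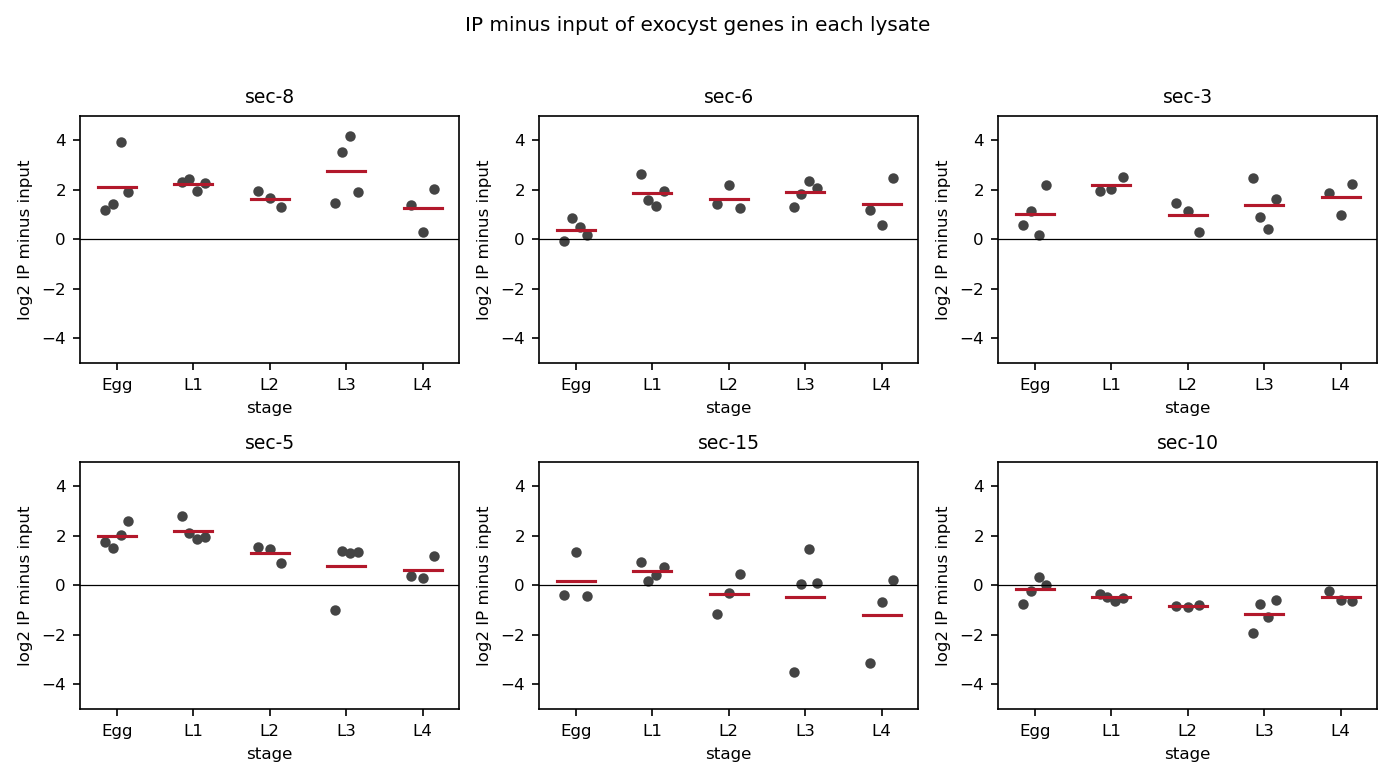
Log2 IP minus input of the 6 exocyst genes in each lysate (points) by stage, with the mean of the lysates of a stage as a red bar. Points of sec-8, sec-6, sec-3 and sec-5 lie above 0 in 69 of 71 lysate values, those of sec-10 lie mostly below 0, and those of sec-15 spread from -3.49 to 1.46.

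ESCRT complexes bend membrane away from the cytoplasm, to form multivesicular endosomes and to cut the bridge between dividing cells. Of 12 ESCRT genes, 1 was higher in the IP, 6 were lower and 5 did not pass the test, with a median of -0.64. The 1 higher gene, vps-36, was the highest of all members and encodes the ubiquitin-binding subunit of ESCRT-II. Its levels were 2.00, 3.25 and 5.95 in the IPs, against 0.18, 0.86 and 1.70 in the inputs, with no overlap. The difference was 2.40 ± 0.127 (adjusted p = 6.29e-12), a 5.28-fold higher level in the IP, above 0 in 18 of 18 lysates, and 98.3% of all genes and probes stood lower. The other ESCRT-II subunits did not follow it. vps-22 had levels of -6.54, -2.31 and -1.75 in the IPs, against -2.48, -1.09 and 0.23 in the inputs. It was lower in the IP at -1.41 ± 0.244 (adjusted p = 7.39e-05). All 18 lysates were below 0, and the IP was above background in 15 of them. vps-25 had a difference of 0.24 ± 0.208 (adjusted p = 0.387). In every one of the 18 lysates the difference of vps-36 exceeded that of vps-25, by 2.29 ± 1.45 (SD), and that of vps-25 exceeded that of vps-22, by 1.72 ± 0.95 (SD). These subunits were set side by side after their values were seen, so these differences are a description.

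**Figure D3:**
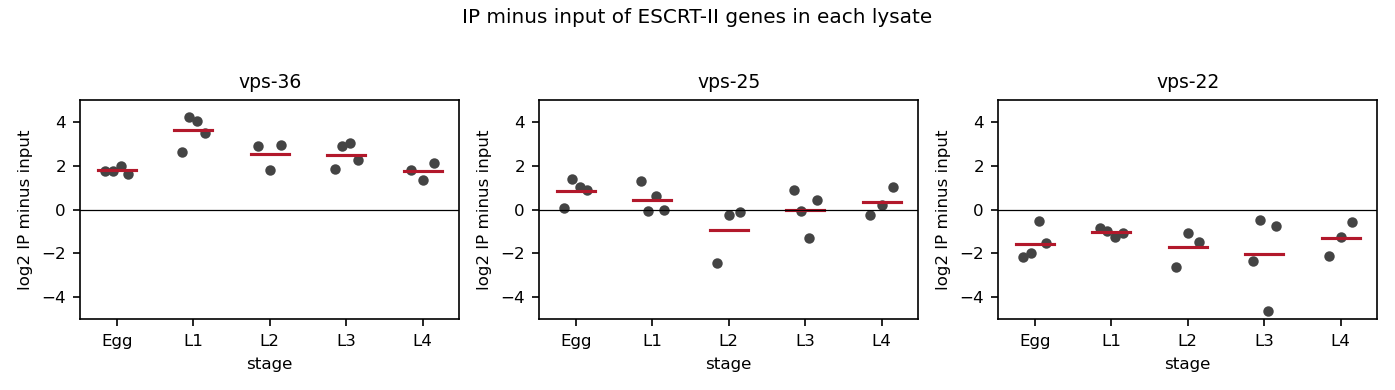
Log2 IP minus input of the 3 ESCRT-II genes in each lysate (points) by stage, with the mean of the lysates of a stage as a red bar. vps-36 lies between 1.34 and 4.25, vps-25 on both sides of 0, and vps-22 between -4.62 and -0.46.

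The lower ESCRT genes came from ESCRT-I and ESCRT-III as well. vps-28, a core subunit of ESCRT-I, was the lowest of all members. Its levels were -6.46, -3.35 and -1.88 in the IPs, against -3.66, -1.48 and -0.65 in the inputs. The difference was -1.81 ± 0.295 (adjusted p = 3.84e-05), a 3.51-fold lower level in the IP, below 0 in 18 of 18 lysates, with the IP above background in 13. vps-2, a subunit of the ESCRT-III filament, had levels of -2.9, -1.58 and -0.54 in the IPs, against -1.99, -0.32 and 1.97 in the inputs. Its difference was -1.20 ± 0.151 (adjusted p = 1.56e-06), below 0 in 18 of 18 lysates, and both fractions were above background in all of them. The ESCRT-III gene vps-24 stood at -1.16 ± 0.141 (adjusted p = 9.49e-07), the ESCRT-III relative vps-60 at -1.04 ± 0.229 (adjusted p = 0.000865) and the ESCRT-I gene vps-37 at -0.98 ± 0.352 (adjusted p = 0.0291). The call of vps-37 was lost without Egg replicate 2 (-0.89, adjusted p = 0.0787), L1 replicate 2 (-0.90, adjusted p = 0.0658), L2 replicate 2 (-0.98, adjusted p = 0.0635) or L4 replicate 10 (-0.84, adjusted p = 0.0992). vps-20, vps-32.1 and vps-32.2 of ESCRT-III and the disassembly ATPase vps-4 lay between -0.30 and 0.08 and did not pass the test.

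At the ER and on the way to the Golgi, no COPII gene was higher in the IP and 3 of 6 were lower, with a median of -0.37. sec-24.1 and sec-24.2 encode copies of the coat subunit that selects cargo. sec-24.1 had levels of -9.12, -2.32 and -0.42 in the IPs, against -4.41, -1.22 and -0.35 in the inputs. It was lower in the IP at -1.58 ± 0.359 (adjusted p = 0.0012), below 0 in 18 of 18 lysates, although the IP was above background in only 12. Its lysates spread widely, from -0.01 in Egg replicate 2 to -7.33 in L4 replicate 3, the lysate with one of the dimmest IPs. sec-24.2 was lower by less, at -0.55 ± 0.086 (adjusted p = 2.3e-05). The coat GTPase activator gene sec-23 stood at -0.73 ± 0.231 (adjusted p = 0.0138), a call that was lost without L2 replicate 2 (-0.66, adjusted p = 0.0536). The outer coat gene sec-31, the exchange factor gene sec-12 and the exit site scaffold gene sec-16A.1 had differences of -0.15, -0.19 and 0.05 and did not pass the test.

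Subunits of the translocon also differed from each other. sec-61.A encodes the channel itself and had a difference of 0.15 ± 0.101 (adjusted p = 0.25). sec-61.B, a small accessory subunit, had levels of -0.11, 2.47 and 3.49 in the IPs, against 0.49, 3.62 and 4.52 in the inputs. It was lower in the IP at -1.21 ± 0.139 (adjusted p = 4.27e-07), a 2.31-fold lower level, below 0 in 18 of 18 lysates. The other small subunit gene, sec-61.G, was lower at -0.66 ± 0.0869 (adjusted p = 3.02e-06), and sec-62, which serves import after translation, at -0.51 ± 0.112 (adjusted p = 0.000865). The difference of sec-61.A exceeded that of sec-61.B in 17 of 18 lysates and that of sec-61.G in 18 of 18, again as a description of subunits picked after their values were seen. sec-11, the catalytic subunit of signal peptidase, was higher in the IP at 1.16 ± 0.126 (adjusted p = 1.96e-07), with a change between stages that is described further on. Of the ER and Golgi SNARE genes, which drive membrane fusion, sec-22 was lower at -1.28 ± 0.296 (adjusted p = 0.00154) and sec-20 had a difference of -0.15 ± 0.532 (adjusted p = 0.844). With the values as deposited the call of sec-22 was lost (-0.80, adjusted p = 0.0682). The IP of sec-22 was above background in 9 of 18 lysates, and at L2 in 0 of 3.

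Rab GTPases switch between a membrane-bound active form and a free inactive form. Of 18 rab genes, 4 were higher in the IP and 5 were lower, with a median of -0.07. rab-28, a ciliary Rab, was the highest of them. Its levels were -6.72, -2.91 and -0.93 in the IPs, against -8.02, -5.0 and -1.03 in the inputs. The difference was 1.59 ± 0.34 (adjusted p = 0.000679), above 0 in 17 of 18 lysates, and the input was above background in 12. Adding an offset of 0.1 before the logarithm, which damps dim values, left 0.62 and kept the call, while a replicate block across stages gave 1.22 and ended it (adjusted p = 0.105). rab-11.1, of recycling endosomes, followed at 0.47 ± 0.113 (adjusted p = 0.00179), above 0 in 11 of 18 lysates. Its stage mean joins a lower call at Egg and higher calls at L3 and L4, which are described further on. rab-6.2, of Golgi to ER traffic, stood at 0.28 ± 0.0908 (adjusted p = 0.0164), and rab-1, of ER to Golgi traffic, at 0.25 ± 0.0929 (adjusted p = 0.0342). With columns centred on their medians the calls of rab-11.1 (0.24, adjusted p = 0.459), rab-6.2 (0.09, adjusted p = 0.788) and rab-1 (0.08, adjusted p = 0.822) were lost. The call of rab-6.2 was also lost without L3 replicate 2 (adjusted p = 0.0501) or L4 replicate 10 (adjusted p = 0.0622). That of rab-1 was lost without Egg replicate 5, L1 replicate 11, L2 replicate 1, L2 replicate 2, L3 replicate 2, L3 replicate 5 or L4 replicate 10, with adjusted p from 0.0518 to 0.169.

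The 5 lower rab genes were rab-39, rab-19, rab-35, rab-10 and rab-6.1. rab-19 stood at -1.16 ± 0.184 (adjusted p = 2.65e-05) and rab-6.1 at -0.75 ± 0.0942 (adjusted p = 1.46e-06), each below 0 in 18 of 18 lysates. rab-10, which acts in basolateral recycling in the intestine, stood at -0.99 ± 0.21 (adjusted p = 0.000616). rab-35, which acts in yolk receptor recycling, stood at -1.12 ± 0.351 (adjusted p = 0.0139), and its call was lost without Egg replicate 2 (-0.94, adjusted p = 0.0531) and with the values as deposited (-0.74, adjusted p = 0.0513). rab-39 was lower at -1.32 ± 0.397 (adjusted p = 0.0124) with the IP above background in 6 of 18 lysates, and was not called with the values as deposited (-0.72, adjusted p = 0.144). The early endosome gene rab-5, the late endosome gene rab-7 and the exocytic gene rab-8 had differences of 0.07, 0.10 and 0.11 and did not pass the test.

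Numbered copies of a gene gave 5 pairs with both copies tested. The difference of rab-6.1 lay below that of rab-6.2 in all 18 lysates, by -1.04 ± 0.37 (SD). The difference of sec-24.1 lay below that of sec-24.2 in 12 of 18 lysates, by -1.26 ± 1.98 (SD). The mean differences between rab-11.1 and rab-11.2 (0.54 ± 1.44), vps-32.1 and vps-32.2 (0.20 ± 1.12) and vps-33.1 and vps-33.2 (0.19 ± 1.43) were smaller than their SD over lysates. The pairs were listed after values had been seen, so these are a description too. Probe sequences were not used here, so signal shared between similar copies was not tested.

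Arf GTPases recruit coats and lipid enzymes. arf-1 and arf-5, whose relatives act at the Golgi, were lower in the IP in 18 of 18 lysates, and arf-6, of the plasma membrane and recycling endosomes, was higher. Levels of arf-1 were 1.17, 2.34 and 3.61 in the IPs, against 2.59, 3.38 and 4.39 in the inputs, and its difference was -1.02 ± 0.0924 (adjusted p = 1.53e-08). Levels of arf-5 were 0.43, 1.27 and 2.08 in the IPs, against 1.45, 2.16 and 3.38 in the inputs, and its difference was -0.96 ± 0.0972 (adjusted p = 7.45e-08). Both were above background in every sample. arf-6 was dim, with levels of -6.72, -3.77 and 0.00 in the IPs, against -7.70, -4.96 and -3.36 in the inputs. Its difference was 1.54 ± 0.362 (adjusted p = 0.00179), above 0 in 13 of 17 lysates. With a replicate block across stages the fitted value was -1.92 and not called (adjusted p = 0.267). That value lies below the difference of every lysate, which ran from -0.84 to 3.70, so it describes none of them. Of 5 arl genes, arl-1, which recruits golgins to the Golgi, was lower. Its levels were -5.55, -3.40 and -1.48 in the IPs, against -3.26, -2.29 and -1.03 in the inputs, and its difference was -1.55 ± 0.257 (adjusted p = 4.68e-05), below 0 in 16 of 18 lysates. In the L2 lysates the IP of arl-1 was not above background and the input was, with differences of -3.20, -2.68 and -2.14. The lysosomal gene arl-8 had a difference of -0.05 ± 0.114 (adjusted p = 0.769), and arl-3, arl-5 and arl-13 lay between -0.26 and 0.12 without a call.

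Of 7 sorting nexin genes, 2 were higher and 1 was lower, with a median of -0.47. snx-14 and snx-13, which carry an RGS domain beside the lipid-binding PX domain, were the higher ones. Levels of snx-14 were 1.42, 1.91 and 2.35 in the IPs, against 0.60, 1.05 and 1.87 in the inputs, and its difference was 0.71 ± 0.104 (adjusted p = 9.96e-06), above 0 in 18 of 18 lysates. With centred columns it was 0.49 and not called (adjusted p = 0.0811). snx-13 stood at 1.01 ± 0.215 (adjusted p = 0.000639), above 0 in 16 of 18. snx-17, an adaptor for recycling cargo, stood at -0.70 ± 0.229 (adjusted p = 0.0181). Without the pairing of IP and input neither snx-13 (1.01, adjusted p = 0.149) nor snx-17 (-0.59, adjusted p = 0.117) was called. In the retromer core, vps-29 was lower at -0.93 ± 0.267 (adjusted p = 0.00758), while vps-35 (0.33 ± 0.189) and vps-26 (-0.24 ± 0.314) did not pass the test. In the lysates of one title spelling vps-29 was at -0.82 and not called (adjusted p = 0.149). At L2 the IP of vps-26 was not above background in any of 3 lysates and the input was in all 3. The differences there spread from -5.01 over -4.12 to -0.61, so their size is loose.

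Averaged over the stages, none of the 8 HOPS, CORVET and SM protein genes passed limma's test at an adjusted p under 0.05. Their mean differences ran from -0.77 (vps-18) to 0.19 (vps-33.1), with a median of -0.12. At L4 alone limma called vps-18 lower in the IP, at -3.05 ± 0.844 (adjusted p = 0.0157). The IP of vps-18 was above background there in 1 of 3 lysates. The phosphatidylinositol 3-kinase subunit gene vps-15 had a difference of -0.38 ± 0.418 (adjusted p = 0.503). Of 4 GARP and EARP genes, vps-52 was lower at -1.35 ± 0.408 (adjusted p = 0.0122, 15 lysates). That call was lost without L2 replicate 2 (-1.21, adjusted p = 0.0536), with the values as deposited (-0.81, adjusted p = 0.0736) and with an offset of 0.1 (-0.21, adjusted p = 0.198). vps-51, vps-53 and vps-54 lay between 0.09 and 0.22 and were not called. vps-72 was higher at 0.40 ± 0.0845 (adjusted p = 0.000622). Despite its name, the yeast homologue of vps-72 belongs to a chromatin remodelling complex that deposits a histone variant. With centred columns vps-72 was at 0.26 and was not called (adjusted p = 0.368).

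At single stages fewer members were called. In Egg lysates limma called 7 members higher and 14 lower (10.4% and 11.8% of all genes and probes). In L1 lysates it called 11 higher and 6 lower (13.1% and 9.84% of all). In L2 lysates it called 7 and 9 (6.27% and 9.99%), in L3 lysates 7 and 14 (8.99% and 12.1%), and in L4 lysates 6 and 14 (8.2% and 11.2%). The lower members were 17.1% of the 82 at Egg, L3 and L4, and 7.32% at L1. The Egg median was -0.19 over the members and -0.04 over all genes and probes. The L1 medians were 0.07 and 0.08, the L2 medians -0.34 and -0.28, the L3 medians -0.14 and -0.07, and the L4 medians -0.21 and -0.15. Only vps-36 was higher at each of the 5 stages, 1 of 82 members, where 3.04% of all were. arf-1, arf-5 and vps-2 were lower at each stage, 3 of 82, where 3.97% of all were. rab-11.1 alone was higher at a stage and lower at another, where 0.75% of all were. The stages share one estimate of the spread.

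These stage counts rested on few lysates. The 7 higher members at Egg became 4 without Egg replicate 1, 3 without Egg replicate 2, 3 without Egg replicate 5, and 4 without L1 replicate 2, L1 replicate 10 or L2 replicate 2. The 14 lower ones became 9 without Egg replicate 1 and 7 without Egg replicate 2. The 6 lower members at L1 became 3, 2, 2 and 3 without L1 replicate 2, 5, 10 and 11. At L2 the 7 higher members became 3 without L2 replicate 1 or 2, and the 9 lower ones became 5, 3 and 5 without L2 replicate 1, 2 and 3. At L4 the 6 higher members became 2 without L4 replicate 10, and the 14 lower ones became 7 without L4 replicate 3. The split of calls also moved with the scaling. It was 4 higher and 19 lower at Egg with the values as deposited. It was 9 and 0 at L1 with centred columns. It was 10 and 6 at L2 as deposited, 2 and 10 centred, and 8 and 5 after a loess fit within each lysate. At L3 it was 3 and 12 centred.

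The IP to input ratio of 3 members differed between stages in an F test over all 5 stages, 3.66% of the 82, where 2.68% of all genes and probes were called. These were rab-11.1, sec-11 and vps-36. Taking larvae together against Egg, limma called the ratio higher in larvae for 4 members, 4.88%, where 2.64% of all were, and lower for 0, where 2.54% of all were and 4 members had an unadjusted p under 0.05. The 4 were sec-11, rab-11.1, sec-6 and vps-24. Their number was 2 without Egg replicate 1, Egg replicate 2, L1 replicate 5, L1 replicate 10, L2 replicate 1 or L2 replicate 3, and 7 without L3 replicate 1.

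For sec-11 the differences were 1.34, 2.01, 1.70 and 1.36 in L1, 1.84, 1.59 and 1.80 in L2, 0.83, 1.52, 1.16 and 2.19 in L3, and 1.14, 0.76 and 2.54 in L4 lysates, against -0.71, -0.34, -0.99 and -0.41 in Egg lysates. All 14 larval lysates were above 0 and all 4 Egg lysates below, with no overlap. The larval mean exceeded Egg by 2.15 ± 0.284 (adjusted p = 9.57e-05), and the F over the stages was 14.5 (adjusted p = 0.00246). In the IPs the level averaged 2.90 ± 0.26 at L1 and 1.12 ± 0.57 at Egg (SD, n = 4 each). In the inputs it averaged 1.29 ± 0.15 at L1 and 1.73 ± 0.39 at Egg (SD, n = 4 each), and the input of sec-11 was not called different between stages (adjusted p = 0.445). With centred columns larvae and Egg still differed in the ratio of sec-11 (2.08, adjusted p = 0.0448), while the F test over stages lost its call (F = 3.98, adjusted p = 0.252).

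For rab-11.1 the ratio climbed over development. The differences were -0.44, -0.68, -0.93 and -1.29 in Egg, 0.06, -0.23, -0.10 and 0.16 in L1, -0.40, 0.67 and 0.04 in L2, 1.05, 1.52, 0.53 and 1.74 in L3, and 1.69, 0.51 and 2.20 in L4 lysates. The Egg lysates were all negative and the L3 and L4 lysates all positive, and those of L1 and L2 lay around 0. The fitted values were -0.70 at Egg (adjusted p = 0.0334), 1.34 at L3 (adjusted p = 0.000245) and 1.56 at L4 (adjusted p = 0.000218). The F over the stages was 16.6 (adjusted p = 0.00121), and the larvae exceeded Egg by 1.47 ± 0.255 (adjusted p = 0.00137). The mean IP level of rab-11.1 was 1.2 ± 0.47 in Egg, 1.37 ± 0.38 in L1, 2.30 ± 0.14 in L2, 3.15 ± 0.53 in L3 and 3.65 ± 0.71 in L4 lysates (SD, n = 3 or 4). Its input averaged between 1.40 and 2.19 at every stage and was not called different between them (adjusted p = 0.397). With centred columns neither the F (3.03, adjusted p = 0.363) nor the difference between larvae and Egg (1.36, adjusted p = 0.223) was called.

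For vps-36 the differences peaked at L1, with 2.65, 4.25, 4.04 and 3.51. They were 1.78, 1.76, 1.99 and 1.64 in Egg, 2.9, 1.80 and 2.96 in L2, 1.87, 2.9, 3.04 and 2.25 in L3, and 1.80, 1.34 and 2.14 in L4 lysates. Every lysate was well above 0, and the L1 values overlapped those of L2 and L3 but not those of Egg and L4. The F was 8.88 (adjusted p = 0.0195). This call was lost without Egg replicate 2 (F = 7.81, adjusted p = 0.0535), L1 replicate 5 (5.92, adjusted p = 0.106), L1 replicate 10 (6.1, adjusted p = 0.0970) or L1 replicate 11 (7.17, adjusted p = 0.0545), and with centred columns (3.80, adjusted p = 0.271).

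**Figure D4:**
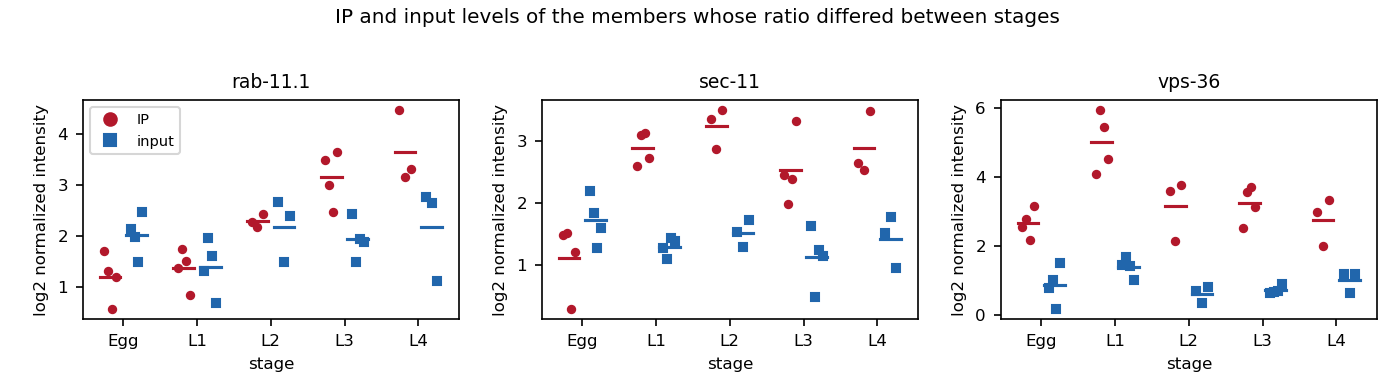
Log2 normalized intensity of rab-11.1, sec-11 and vps-36 in the IPs (red circles) and inputs (blue squares) of each lysate by stage, with bars at the mean. The IP of rab-11.1 averages 1.2 at Egg and 3.65 at L4 while its input stays between 1.40 and 2.19, the IP of sec-11 exceeds the input at every larval stage but not at Egg, and the IP of vps-36 is highest at L1.

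The calls of sec-6 and vps-24 between larvae and Egg were less firm. The difference of sec-6 was 0.60, 1.70 and 2.63 (lowest, median and highest) in the 14 larval lysates, against -0.05, 0.87, 0.50 and 0.16 in the Egg lysates. It was 1.26 ± 0.36 higher in larvae (adjusted p = 0.0467), and leaving out any 1 of 14 lysates ended the call. The difference of vps-24 was -2.36, -0.83 and 0.00 in the larval lysates, against -2.96, -1.76, -2.62 and -1.66 in the Egg lysates. It was 1.16 ± 0.319 higher in larvae (adjusted p = 0.0377), so its IP stood closer to the input in larvae, and leaving out any 1 of 9 lysates ended the call.

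Total RNA of the members was compared between larvae and Egg in the 18 inputs. limma called 0 members higher in larvae, where 13.7% of all genes and probes were called higher, and 0 members had an unadjusted p under 0.05 in that direction. It called 15 lower, 18.3% of the 82, where 13.3% of all were called lower. The median was -0.42 over the members and -0.02 over all, and 64 of the 82 members were below 0, which is 78%, where 50.8% of all genes and probes were. Without Egg replicate 4 the number called higher was 1. Of the 15, 6 had every larval input below every Egg input, which is 40%, where 40.1% of all genes and probes called lower did. When each lysate was left out in turn, 10 of the 15 calls were not lost in any fit that could test the gene. These include arl-3, which could not be tested without L4 replicate 1. Medians of germ line markers were -1.24 to 1.34 in the larval inputs and -0.55 to 0.72 in the Egg inputs. The part of the makeup of cells in these differences was not tested.

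Among the 15 were 5 rab genes. The clearest was rab-14, of endosomes and phagosomes, with input levels of 0.22, 0.52 and 0.97 in the 14 larval lysates, against 2.04, 1.81, 1.94 and 1.82 in the Egg lysates. The groups did not overlap, and the difference was -1.37 ± 0.183 (adjusted p = 1.93e-05). rab-8 stood at 2.30, 3.16 and 3.65 in larvae, against 4.29, 4.75, 3.33 and 4.07 in Egg, a difference of -1.08 ± 0.206 (adjusted p = 0.000705). rab-10 stood at -1.58, -0.67 and 0.18 in larvae, against 0.97, 0.10, 0.77 and -0.15 in Egg, a difference of -1.09 ± 0.26 (adjusted p = 0.00422). For both genes most larval lysates lay below the Egg lysates, with some overlap. rab-28 had levels of -8.02, -5.39 and -3.57 in larvae, against -2.59, -2.91, -1.03 and -3.37 in Egg, a difference of -2.76 ± 0.533 (adjusted p = 0.000756). The fifth, rab-19, was lower by -0.91 ± 0.266 (adjusted p = 0.0158), a call that was lost without Egg replicate 1 (-0.77, adjusted p = 0.0748) or Egg replicate 2 (-0.73, adjusted p = 0.118).

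The 15 also held arl-13 and arl-3, GTPase genes that act in cilia. The input of arl-13 was lower in larvae by -2.25 ± 0.563 (adjusted p = 0.00573) and that of arl-3 by -2.46 ± 0.588 (adjusted p = 0.00415). The input of arl-3 was -9.50, -5.03 and -3.12 in larvae, against -3.10, -3.07, -1.38 and -4.21 in Egg. The inputs of rab-28, arl-13 and arl-3 were each above background in 8 of 14 larval lysates and in 4 of 4 Egg lysates, so the size of these decreases is loose, and with an offset of 0.1 they were -1.09, -0.87 and -0.82 and still called. vps-39, a HOPS subunit, stood at -7.47, -3.89 and -1.47 in larvae, against -1.18, -2.04, -0.38 and -1.46 in Egg, a difference of -2.59 ± 0.639 (adjusted p = 0.00529). The exocyst gene sec-3 was lower in larvae by -1.84 ± 0.348 (adjusted p = 0.000712), and the ESCRT-I gene vps-37 by -1.38 ± 0.304 (adjusted p = 0.00221), both without overlap. snx-17, vps-4, arl-1, arf-5 and vps-72 completed the 15, between -1.48 and -0.52. The calls of vps-4, arl-1, arf-5 and vps-72 were each lost without Egg replicate 1 (adjusted p from 0.0526 to 0.123) or Egg replicate 2 (adjusted p from 0.0789 to 0.172). That of arl-1 was also lost without Egg replicate 4 (adjusted p = 0.0602), and those of vps-4 (adjusted p = 0.0518) and vps-72 (adjusted p = 0.0781) without Egg replicate 5.

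An F test over the 5 stages called the input of 11 members, 13.4%, where 25% of all genes and probes were called. Between the L4 and L1 inputs 0 members were called higher, where 5.28% of all were and 7 members had an unadjusted p under 0.05. Without Egg replicate 4 that number was 1, and without L4 replicate 10 it was 2. Only arl-3 was called lower at L4, 1.22% of the members and 2.64% of all. The input of arl-3 was -9.50, -7.57 and -5.30 at L4, against -3.88, -3.57, -3.12 and -3.63 at L1, a difference of -3.83 ± 0.792 (adjusted p = 0.00515). The input of arl-3 was above background in 8 of 14 larval lysates, so the size of this difference is loose. With an offset of 0.1 the difference was -0.81 and not called (adjusted p = 0.0726). Without L4 replicate 1, arl-3 had too few lysates with both values to be tested and the number called lower was 0, and without L3 replicate 1 it was 2.

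**Figure D5:**
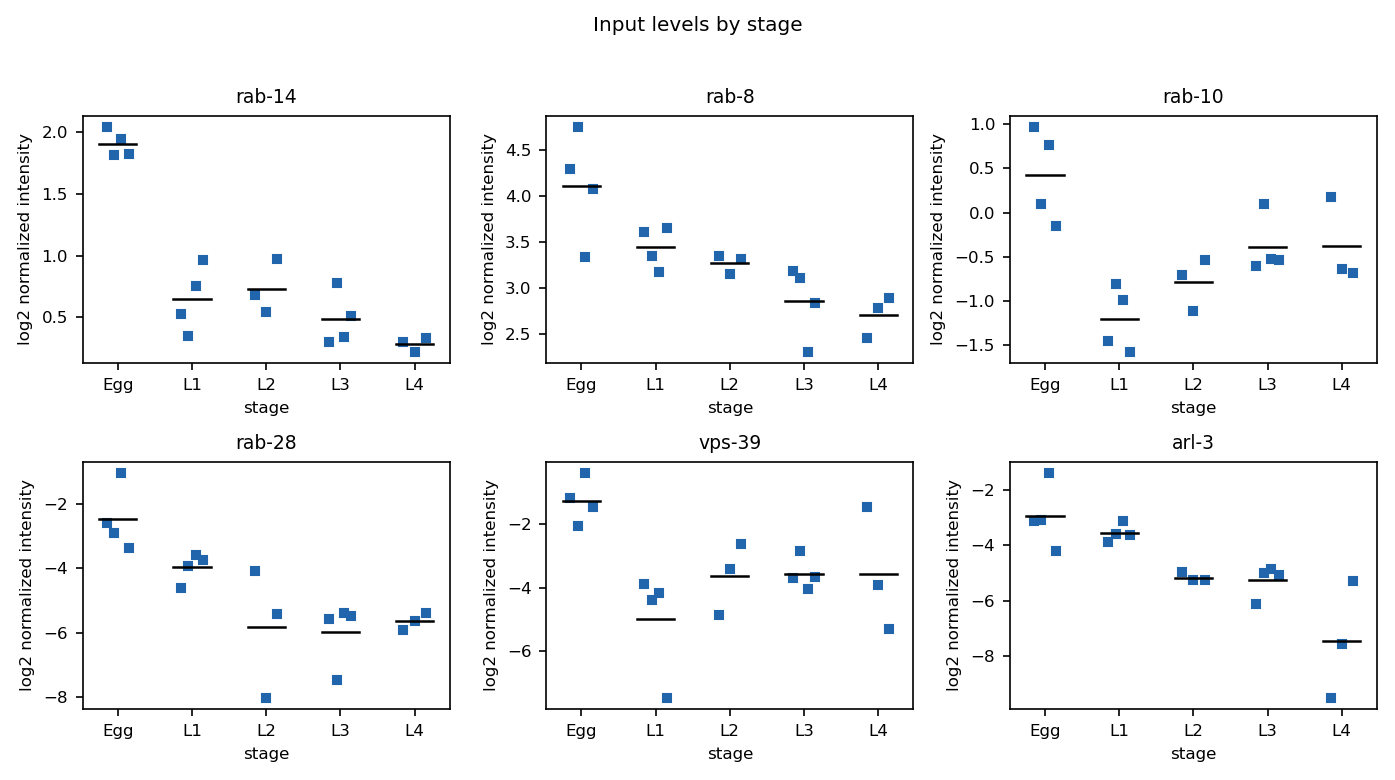
Log2 normalized intensity in the inputs of rab-14, rab-8, rab-10, rab-28, vps-39 and arl-3 in each lysate (blue squares) by stage, with the mean as a black bar. Egg lysates of rab-14 lie between 1.81 and 2.04 and all larval lysates of it at 0.97 or less. The axes differ between genes and do not start at a common value.

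Other genes of vesicle transport, with names outside the rule, were grouped in 6 lists. Only genes that could be tested are counted below. These were all 7 COPI genes, 25 of 31 SNARE and SM protein genes and 31 of 48 Rab and Arf regulators and effectors. They were 13 of 31 clathrin and adaptor genes, 20 of 33 TRAPP, golgin and p24 genes and 4 of 8 further ESCRT genes. Of 7 COPI coat genes, which serve traffic from Golgi to ER, 5 were lower in the IP and 0 were higher by limma, with a median of -0.93, and copz-1 was the lowest at -1.65 ± 0.125 (adjusted p = 1.16e-09). Of 25 SNARE and SM protein genes, 5 were higher, the highest of them the Golgi syntaxin gene syx-5 at 1.72 ± 0.187 (adjusted p = 2.03e-07). In the same list 8 were lower, the lowest snap-1, which helps to take SNARE bundles apart, at -1.53 ± 0.239 (adjusted p = 2.41e-05), and the median was -0.35. Of 31 genes listed as Rab and Arf regulators and effectors, 12 were higher and 6 were lower, with a median of 0.16. They ran from tbc-12, of a family that turns Rab proteins off, at 2.25 ± 0.315 (adjusted p = 5.97e-06) to the Arf exchange factor gene gbf-1 at -1.72 ± 0.47 (adjusted p = 0.00704). This list also holds the GTPase genes evl-20 (1.60), sar-1 (-0.88) and unc-108 (0.17). Of 13 clathrin and adaptor genes, 2 were higher and 5 were lower, with a median of 0.19. The highest was apm-3 of the AP-3 adaptor at 2.21 ± 0.239 (adjusted p = 1.96e-07), and the lowest was aps-1 of the AP-1 adaptor at -1.29 ± 0.131 (adjusted p = 8.14e-08). Of 20 TRAPP, golgin and p24 genes, 3 were higher and 8 were lower, with a median of -0.35, from trpp-9 at 1.93 ± 0.285 (adjusted p = 1.15e-05) to tmed-3 at -1.49 ± 0.173 (adjusted p = 4.99e-07). Of 4 further ESCRT genes 2 were lower, with did-2 at -1.14 ± 0.121 (adjusted p = 1.65e-07). Beside these counts stand the 19.1% higher and 25.1% lower of all genes and probes.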

How the data were processed

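RNA of 18 lysates was measured as IP and input on spotted 2-colour arrays, 36 samples in all, with the IP in Cy3 in 12 lysates and in Cy5 in 6. The deposited values are intensities on a linear scale; values below 0 in every column show that a background was subtracted and column means near 1 that columns were scaled, by methods not given in the sources used here. The genome build is not given there either. Gene symbols came from the platform annotation: of 23232 spots 17461 had 1 symbol and 5771 none. Values of 0 or less, between 5.75% and 20.3% of a column, were set to missing, the rest were taken to log2 and quantile normalized over the 36 columns, and probes of a gene were averaged. Genes entered the tests where IP and input were both measured in 2 or more lysates of each stage.

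The log2 IP minus input of each lysate was fitted with limma 3.58.1 in R 4.3.3, with stage and dye as terms and a mean-variance trend, and p-values were Benjamini-Hochberg adjusted over all 15732 genes and probes, with a call at an adjusted p under 0.05. A second limma fit used the 18 inputs. Residual degrees of freedom were 12 in both for genes with values in all 18 lysates, and fewer for genes with missing values. The lysate pairs IP and input by the labels, and their deviations correlated in 18 of 18 lysates (r from 0.25 to 0.60). Members named with values in each lysate were the 6 highest and 6 lowest called members with 15 or more lysates on one side of 0, the 3 with the largest F of stage differences and the 3 lowest in input of larvae against Egg (none was called higher). Other members are named by role, and from each further list the highest and lowest called gene; the genes whose input is shown beyond the 3 were picked after their values were seen. The members, their roles and all lists were chosen with earlier results of these data known. Replicates were cultured and harvested separately, per the labels.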

Additional observations from a re-analysis of the deposited data

Results flagged for a closer look

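Among 55 groups of 4 lysates, 6 held a lysate far from the other 3, and chance alone marks about 1 group in 20. The difference of vps-39 was -4.29 in Egg replicate 1, against -0.53, -0.38 and -0.24 in the other Egg lysates, and its input was -7.47 in L1 replicate 11, against -4.40, -4.18 and -3.88. The difference of vps-2 was -3.01 in Egg replicate 4, against -1.30, -1.27 and -1.07. The difference of sec-5 was -0.99 in L3 replicate 1, a dim IP, against 1.31, 1.35 and 1.39. The input of rab-28 was -7.48 in L3 replicate 2, against -5.57, -5.48 and -5.37, and that of arl-3 was -6.13 in L3 replicate 1, against -5.05, -5.0 and -4.84.

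The IP to input ratio differed between stages by a limma contrast for these members. Larvae exceeded Egg by 2.15 for sec-11, 1.47 for rab-11.1, 1.26 for sec-6 and 1.16 for vps-24 (log2). The F over the 5 stages was 16.6 for rab-11.1, 14.5 for sec-11 and 8.88 for vps-36.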

How the results depend on the processing

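The counts of members higher and lower at the mean of the 5 stages stayed within 1.5 times of 14 and 25 under every alternative run. Leaving out 1 lysate at a time gave 12 to 15 higher and 21 to 26 lower at the mean, 3 to 7 and 7 to 18 at Egg, 8 to 13 and 2 to 8 at L1, 3 to 7 and 3 to 12 at L2, 6 to 7 and 11 to 17 at L3, and 2 to 7 and 7 to 17 at L4. It gave 2 to 7 members with a higher ratio in larvae than in Egg and 0 with a lower one, 0 to 1 higher and 10 to 17 lower inputs in larvae, 0 to 2 higher and 0 to 2 lower inputs at L4 than at L1, 2 to 4 members in the F test of the ratio and 8 to 13 in that of the input. With centred columns the members called were 3 higher and 8 lower at Egg, 0 lower at L1, 2 higher at L2, 3 higher at L3, and 3 higher and 8 lower at L4, with 1 higher ratio in larvae and 0 in the F test of the ratio. Loess within each lysate gave 5 lower at L2. The 12 lysates of one title spelling, where the lone L1 lysate is assumed to vary like the others, gave 3 and 9 at Egg, 1 and 0 at L1, 3 higher at L2, 3 and 5 at L4, 1 higher ratio in larvae, 6 lower inputs in larvae, 0 lower inputs at L4, and 1 and 2 in the F tests of ratio and input. Without the pairing of IP and input (no replicate block) the counts were 3 and 5 at Egg, 6 and 0 at L1, 4 and 2 at L2, 4 lower at L3, 3 and 4 at L4, 1 higher ratio in larvae and 1 in the F test of the ratio. An offset of 0.1 gave 11 lower at L1 and 5 in the F test of the ratio. The values as deposited gave 4 higher at Egg, 9 higher ratios in larvae and 7 in the F test of the ratio. Replicate numbers shared across stages were not used as a block in the main fit. Of 19 pairs of lysates that share a number, 3 correlated above 0.1 in the ratio and 6 in the input. The highest r was 0.17 in the ratio and 0.36 in the input. Whether lysates of one number share a batch was not tested. A replicate block across stages gave 3 higher at Egg, 6 and 0 at L1, 4 and 0 at L2, 9 lower at L4, 1 higher input in larvae and 7 in the F test of the input. Under that block the fitted value of arf-6 was negative at the mean (-1.92, adjusted p = 0.267) and at L1 (-2.09, adjusted p = 0.787). Both values lie below the difference of arf-6 in every lysate, which ran from -0.84 to 3.70. The cause of these differences was not tested. Of the 39 calls at the mean, the block across stages kept 28 and lost arf-6, rab-28, rab-35, rab-39, sec-22, sec-23, sec-24.1, snx-13, snx-17, vps-29 and vps-37. Of the 15 lower inputs in larvae it kept 10 and lost arl-13, rab-10, vps-39, vps-4 and vps-72. Between 43 and 81 of the 84 members were above background in an IP, and folds of those below it are uncertain.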

Other observations

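Different probes of a gene did not always give the same value. The 2 probes of vps-13D, a lipid transfer protein gene, stood at 0.36 and -0.87 at the mean of the stages, and the average reported for it was -0.15. The 3 probes of vps-8, a CORVET subunit gene, stood at 0.03, 0.09 and -0.07. Their mean input levels were far apart, at -3.85, 0.68 and -6.84. The last had a difference in 8 lysates and was above background in 2 inputs. The value of vps-8 in a lysate therefore depends on which probes were measured there.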
